A study of Mus musculus with 38 samples.

Results

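The genes described here are 10 genes of blood vessel growth and of the endothelium, the cell layer that lines vessels: the ligand genes Vegfa, Vegfb and Angpt1, the receptor genes Kdr, Flt1, Tek and Tie1, the junction genes Pecam1 and Cdh5, and Myct1. They were followed in the mouse soleus, a slow postural muscle, by CAGE, which sequences the capped 5′ ends of transcripts so that each tag marks a start of transcription. The genes were chosen by name, and each is represented by every CAGE cluster (a group of neighbouring start sites, here called a promoter) whose highest peak lay within 500 bp, on the same strand, of an annotated 5′ end in GENCODE vM21. All 10 genes had a promoter and Flt1 had 2, so that 11 of 10819 promoters, and 10 of 9077 genes with a promoter, are covered.

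VEGF-A is the main growth factor for endothelial cells and is made in muscle largely by the fibres. Its receptor KDR (VEGFR2) carries most of the growth signal, whereas FLT1 (VEGFR1) binds VEGF-A and VEGF-B tightly but signals weakly, and its soluble form acts as a trap. In a parallel system, angiopoietin-1 activates the receptor TEK (Tie2), with TIE1 as its co-receptor, and keeps quiescent vessels stable. PECAM1 and VE-cadherin, the product of Cdh5, hold endothelial cells together.

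Every mouse was a young adult male C57BL/6J mouse with an implanted temperature sensor and gave 1 library. Experiment 1 held 28 libraries. The 4 Pre mice were fed freely and sampled on day 1, the 8 Mid mice had their food removed on day 2 at a low ambient temperature, which brings on daily torpor (a bout of low metabolism and body temperature), and the 4 Post mice were sampled on day 3 after food was given back. The 4 HiT mice were kept at a high ambient temperature, and the 4 Fed mice kept their food on day 2. The 4 Dep mice were fasted but touched gently to keep them from entering torpor. The methods set the ambient temperature before recording and held it constant, and the paper describes Fed as low temperature alone. By that account Mid and Fed shared a low temperature, and HiT differed from both. The paper gives no separate temperature for Pre, Post or Dep, so their match to Mid rests on the constant setting. Experiment 2, an independent batch of mice sequenced on another instrument, held 2 Pre, 5 Mid and 3 Post libraries. The sources differ on food: the methods have the HiT mice fasted and the Fed mice fed, whereas the record's design text gives the HiT mice food and a sample label of the Fed mice reads starvation. The methods were followed here, so food is uncertain in any comparison with HiT or Fed. The Mid mice were sampled by the clock and not by their metabolic state.

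Depth ran from 18257657 to 39176649 tags per library in experiment 1 and from 9359994 to 20914855 in experiment 2. Levels are CPM, tag counts scaled to a common library size, after TMM scaling, a correction for RNA composition done within each experiment, so levels should not be compared between experiments. Each RNA gives 1 tag whatever its length, so levels of different genes share a scale. A change is called where the edgeR quasi-likelihood F test, two-sided and fitted on all promoters, gave a false discovery rate (FDR) below 0.05. In bulk muscle, fewer cells of a type and less RNA per cell cannot be told apart. Of 28 further endothelial markers, 24 had a promoter, and their summed level ran from 647.7 to 883.5 CPM over experiment 1. The markers Erg, Tal1, Clec14a and Mmrn1 had none under the rule.

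The levels of the 11 promoters spanned a wide range. Averaged over experiment 1, Vegfa stood highest at 233.7 CPM (percentile 95.3 of all promoters), followed by Vegfb at 100.2 CPM, Pecam1 at 81.9 CPM, Flt1 at 74.8 CPM and Kdr at 38.5 CPM. Cdh5 (28.5 CPM), Tek (17.5 CPM), Tie1 (13.2 CPM), Angpt1 (10.5 CPM) and Myct1 (9.45 CPM) were lower, and the second Flt1 promoter, upstream of the first, was lowest at 7.94 CPM. All 11 promoters passed an F test for any difference among the 6 groups of experiment 1, a test passed by 70.6% of all promoters. By this edgeR test Angpt1 (FDR = 1.13e-07), Kdr (FDR = 1.33e-07) and Vegfa (FDR = 1.75e-06) had the smallest values and Cdh5 the largest (FDR = 0.0473).

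**Figure D1:**
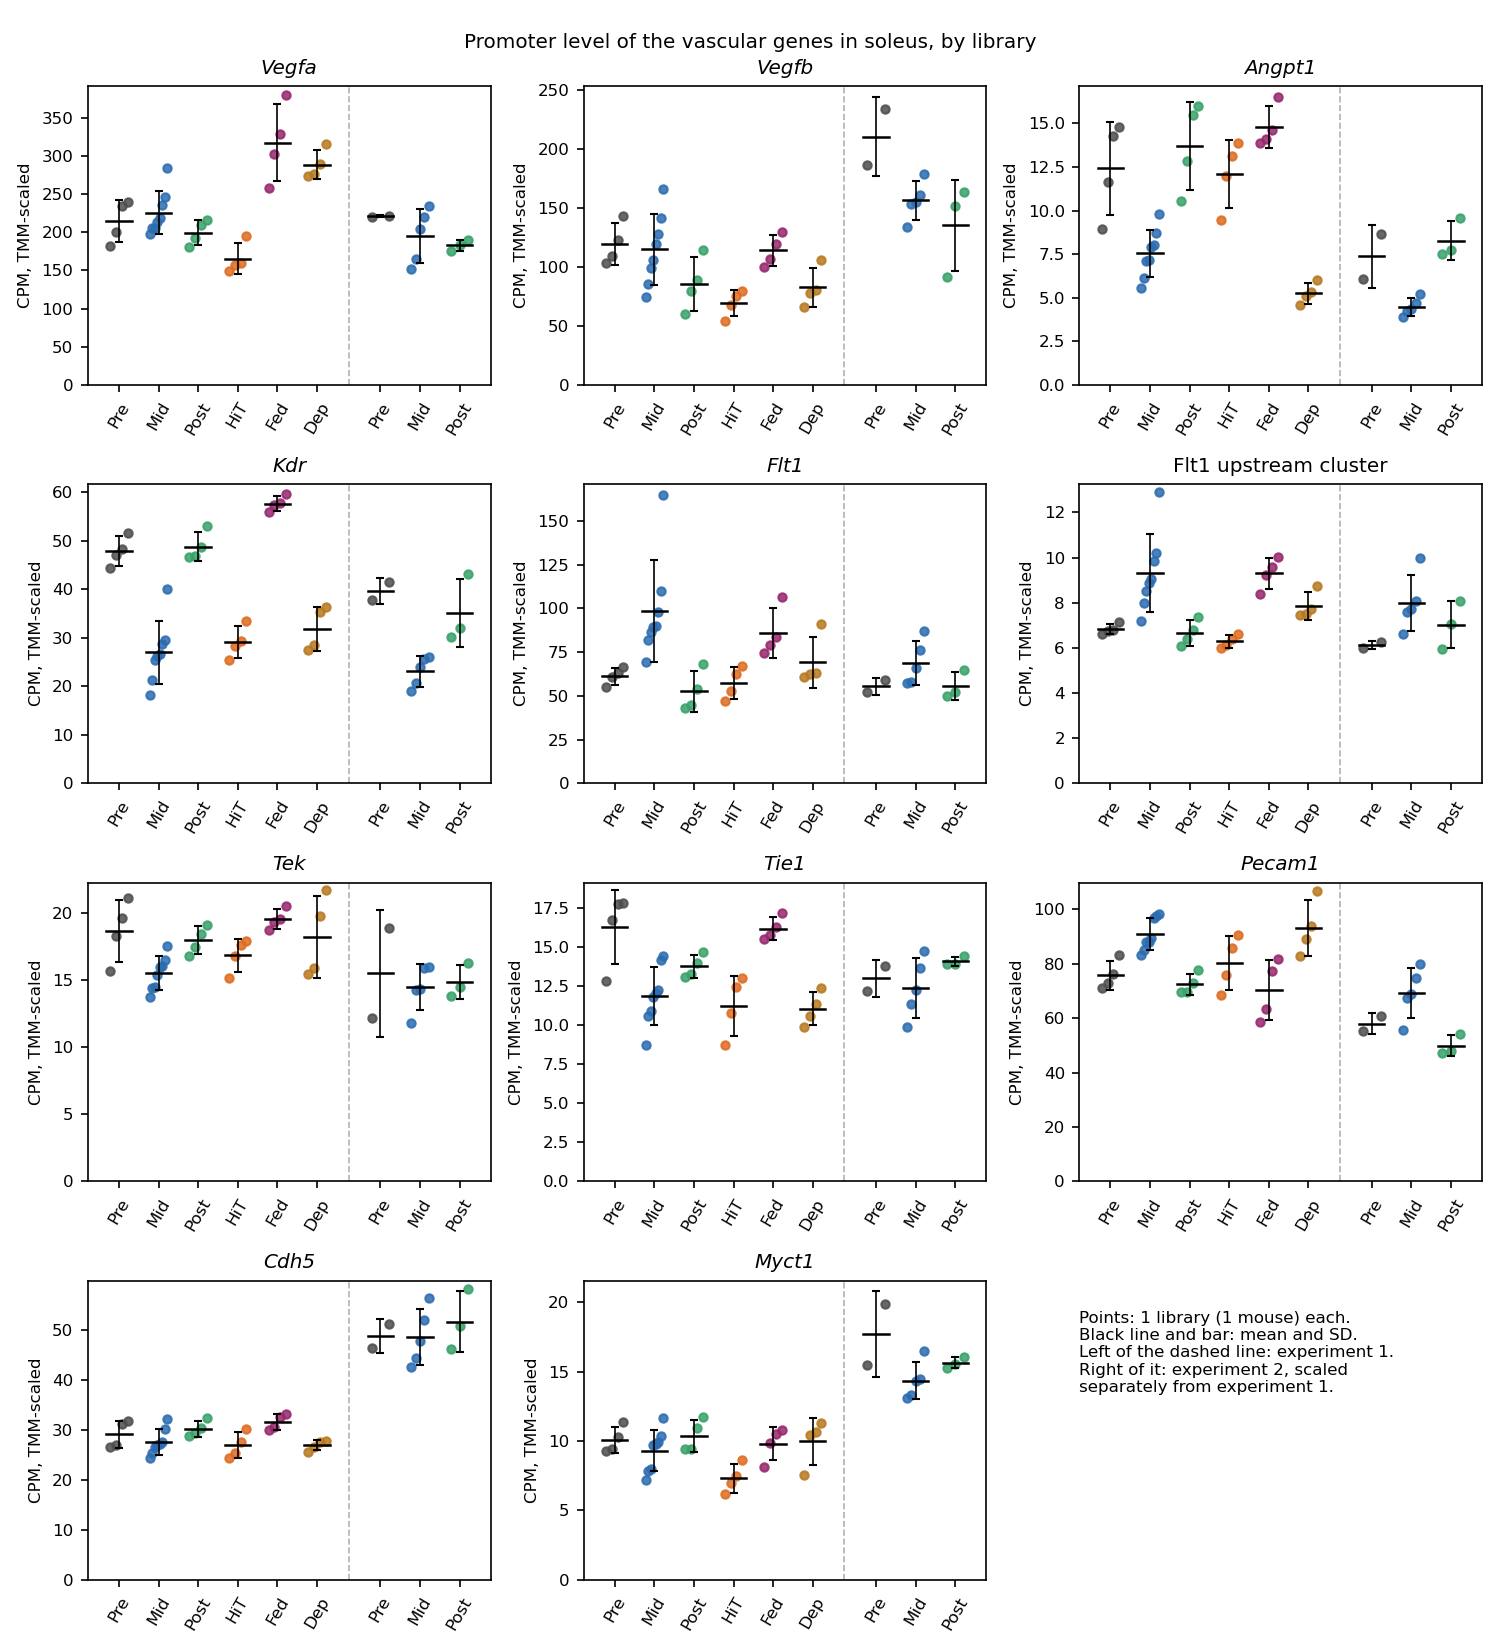
Level of each of the 11 promoters (vertical axis, TMM-scaled CPM from 0) in every library, by group, with the group mean and SD in black and experiment 2 to the right of the dashed line. Kdr and Angpt1 are low in the Mid libraries of both experiments, Flt1 is high in Mid of experiment 1, Vegfa has its highest means in Fed and Dep, and Cdh5 lies between 24.4 and 33.3 CPM over experiment 1.

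From Pre to Mid in experiment 1, the comparison that asks what changes with fasting and torpor, the VEGF receptor genes moved in opposite directions. Kdr fell to 0.564 of its Pre level while Flt1 rose 1.61-fold. In the angiopoietin system Angpt1, Tie1 and Tek were all lower, Pecam1 was 1.199-fold higher, and Vegfa, Vegfb, Cdh5 and Myct1 did not pass the test. In all, 3 of 11 promoters were called higher and 4 lower, against 30.2% of all promoters called (15.4% higher, 14.8% lower). The median log2 change of the 11 was -0.08, and that of all promoters was 0.0057.

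Kdr is transcribed from chromosome 5 (GRCm38, minus strand) with its peak at position 75978457. Its level in the Pre mice of experiment 1 was 44.4, 51.7, 48.4 and 47.1 CPM. In the 8 Mid mice it ran from 18.1 to 40.2 CPM with a median of 26.4 CPM, and every Mid library lay below every Pre library. The means were 47.9 ± 3.0 CPM (SD, n = 4) and 27.04 ± 6.5 CPM (SD, n = 8). The edgeR log2 change was -0.83 with a standard error (SE) of 0.13 (FDR = 2.1e-05). A two-sided exact permutation test over the libraries gave p = 0.00202, the smallest it can give here. After refeeding the 4 Post mice stood at 53.1, 46.8, 48.7 and 46.6 CPM, above all Mid libraries (log2 change 0.85, SE 0.13, FDR = 9.04e-06). Pre and Post did not differ by the test (log2 change 0.03, 95% interval -0.26 to 0.32).

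Flt1 lies on the same chromosome and strand, with its main peak at position 147726013. Its Pre levels were 62.9, 55.1, 66.7 and 60.5 CPM. The Mid levels ran from 69.2 to 164.8 CPM with a median of 89.6 CPM, all above the Pre levels, and the highest of them came from Mid 3, the library with the lowest Kdr. The means were 61.3 ± 4.9 CPM (n = 4) and 98.7 ± 29.2 CPM (n = 8), a log2 change of 0.69 (SE 0.18, edgeR FDR = 0.00443). In Post it was 44.6, 53.8, 43.2 and 68.3 CPM, below every Mid library (log2 change -0.91, SE 0.18, edgeR FDR = 0.000305). Scaling by library size without TMM kept the direction of the rise from Pre but ended the call (log2 change 0.62, FDR = 0.0819).

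The upstream Flt1 promoter, with its peak at position 147726354, moved with the main one. It rose from 6.83 ± 0.22 CPM in Pre (n = 4) to 9.32 ± 1.74 CPM in Mid (n = 8), with no overlap between the groups (log2 change 0.45, SE 0.11, edgeR FDR = 0.0028, against FDR = 0.135 without TMM). It fell again to 6.65 ± 0.56 CPM in Post (n = 4, log2 change -0.49, edgeR FDR = 0.00116). It gave a mean of 10.1% of all Flt1 tags in Pre, 8.84% in Mid and 11.5% in Post, so most Flt1 tags came from the main promoter in all 3 groups.

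The ratio of Kdr to Flt1 tags within a library, chosen after the levels were seen and not tested, does not depend on the scaling. It was 0.707 to 0.939 in Pre, 0.110 to 0.581 in Mid and 0.682 to 1.19 in Post, so that no Mid library reached the lowest Pre or Post library. In Fed it was 0.559 to 0.778, in HiT 0.439 to 0.710 and in Dep 0.388 to 0.582. In experiment 2 the ratio was 0.705 to 0.726 in Pre, 0.218 to 0.416 in Mid and 0.465 to 0.870 in Post, again with Mid below both other groups.

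**Figure D2:**
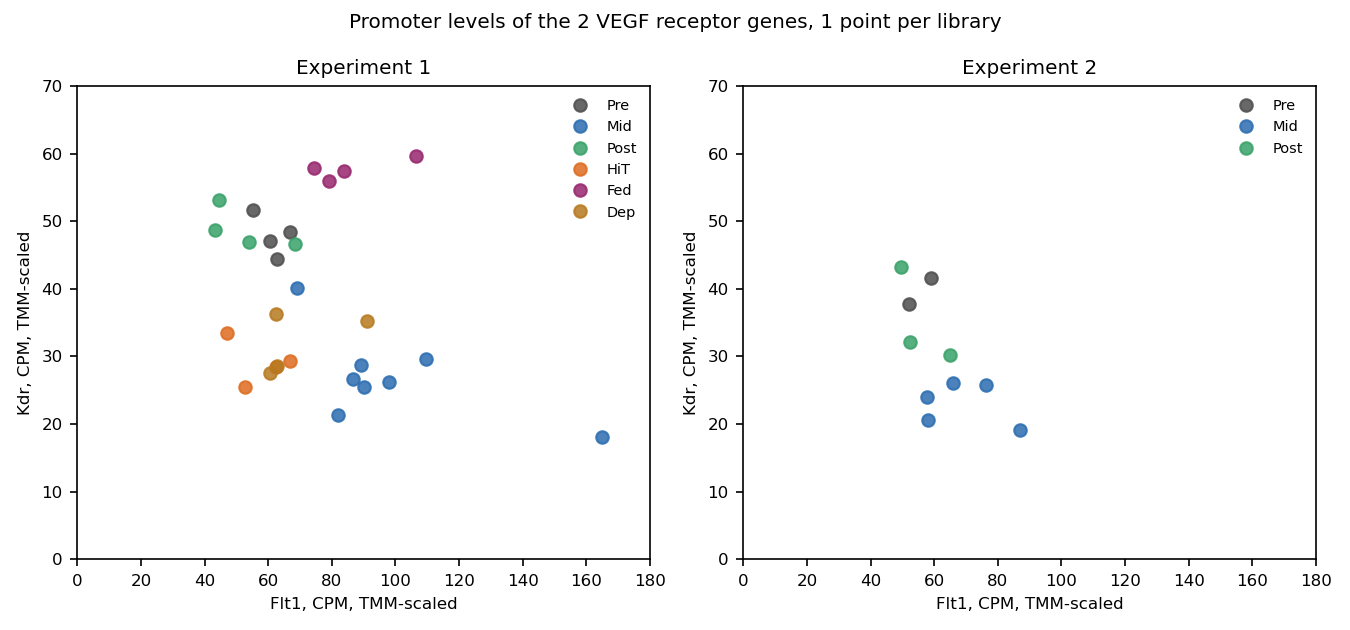
Kdr level (vertical axis) against Flt1 level (horizontal axis), both in TMM-scaled CPM from 0, with 1 point per library and colours for the groups, experiment 1 left and experiment 2 right. In experiment 1 the Mid libraries lie low and to the right, the Pre and Post libraries higher and to the left, and the 4 Fed libraries lie at the top, between 55.9 and 59.6 CPM of Kdr.

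The core promoters of Kdr, Flt1 and Vegfa are shown because these receptors and their ligand responded differently. Each run holds the 150 bases before the RefSeq start (GRCm38.p6), read 5′ to 3′ on the minus strand, and the CAGE peak lay within 3 bases of that start in each gene. Capitals mark 3 motifs searched on both strands: the ETS motif GGAAG, the SP and KLF GC box GGGCGG and the cyclic AMP response element TGACGTCA.
Kdr, chr5:75978456-75978605: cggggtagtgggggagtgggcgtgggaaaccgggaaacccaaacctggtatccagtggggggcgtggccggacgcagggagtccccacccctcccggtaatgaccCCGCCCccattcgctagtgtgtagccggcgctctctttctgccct
Flt1, chr5:147726012-147726161: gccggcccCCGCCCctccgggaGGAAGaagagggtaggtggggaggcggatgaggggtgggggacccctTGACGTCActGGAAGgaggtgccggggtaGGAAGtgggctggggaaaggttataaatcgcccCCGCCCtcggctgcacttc
Vegfa, chr17:46032378-46032527: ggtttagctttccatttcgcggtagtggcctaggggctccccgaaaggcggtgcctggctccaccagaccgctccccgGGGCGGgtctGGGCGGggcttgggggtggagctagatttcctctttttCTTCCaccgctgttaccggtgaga
Counted back from the start, Flt1 held the motif GGAAG at -128, -71 and -52, the cyclic AMP response element at -81, and the GC box at -142 and -19. Kdr held 1 GC box at -45 and no GGAAG, and Vegfa held 1 GGAAG at -24 and GC boxes at -72 and -62. The shorter letters GGAA, which ETS factors can also bind, were not searched, and they do occur in the Kdr window. Among 32851 RefSeq promoters of the same length, 47.7% held GGAAG, 28.6% the GC box and 1.36% the cyclic AMP response element. Of the hypoxia response core only the form ACGTG was searched. It was in none of the 3 windows and in 11.2% of all promoters. The form GCGTG was not searched, and it does occur in the Kdr window. No marked match overlaps another. A match describes letters in these windows and does not show that a factor binds. For 5 of the 10 genes (Vegfa, Vegfb, Kdr, Flt1 and Myct1) a RefSeq window matched the CAGE peak.

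Among the angiopoietin genes, Angpt1 (chromosome 15, minus strand, peak at 42676823) changed most. Its Pre levels were 11.6, 14.8, 14.3 and 8.96 CPM and its Mid levels 5.57 to 9.79 CPM with a median of 7.56 CPM, so that 1 Pre library lay inside the Mid range. The log2 change was -0.72 (SE 0.14, edgeR FDR = 0.000432). The Post levels of 16.01, 10.5, 15.5 and 12.9 CPM were all above Mid (log2 change 0.86, SE 0.14, edgeR FDR = 3.98e-05). The Mid levels rest on 162 to 275 tags per library.

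The receptor genes of this system moved less. Tek (chromosome 4, plus strand, peak at 94739500) was 18.7 ± 2.3 CPM in Pre (n = 4) and 15.5 ± 1.3 CPM in Mid (n = 8), with overlapping libraries (log2 change -0.27, SE 0.09, edgeR FDR = 0.022). That call was lost without Mid 8 (FDR = 0.0523), Pre 2 (FDR = 0.076) or Pre 4 (FDR = 0.117), with the replicate number as a block (FDR = 0.0852) and without TMM (FDR = 0.124). Tie1 (chromosome 4, minus strand, peak at 118489770) fell from 16.3 ± 2.4 CPM (n = 4) to 11.9 ± 1.9 CPM (n = 8), a log2 change of -0.46 (SE 0.11, edgeR FDR = 0.00353), with 1 Pre library inside the Mid range. In Post neither Tek (18 ± 1.04 CPM, edgeR FDR = 0.0635) nor Tie1 (13.8 ± 0.7 CPM, edgeR FDR = 0.158) passed the test against Mid (n = 4 each). Tek did without Mid 6 (FDR = 0.0285), Dep 1 (FDR = 0.0462) or Dep 4 (FDR = 0.0482) and with upper-quartile scaling (log2 change 0.28, FDR = 0.0152), and Tie1 did with all 38 libraries in 1 fit (FDR = 0.0404).

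Of the junction genes, Pecam1 (chromosome 11, minus strand, peak at 106715281) was higher in all 8 Mid libraries, at 83.2 to 98.3 CPM, than in the 4 Pre libraries, at 71.0 to 83.0 CPM. The log2 change was 0.26 (SE 0.09, edgeR FDR = 0.0234), and in Post it was 69.5 to 77.5 CPM, below all Mid libraries (log2 change -0.33, SE 0.09, edgeR FDR = 0.00456). The rise was not called without Pre 1, Pre 2 or Pre 3 (FDR = 0.0702, 0.0533 and 0.0819), with a replicate block (FDR = 0.13), with upper-quartile scaling (FDR = 0.0945) or without TMM (FDR = 0.512), and the fall to Post was not called without TMM (FDR = 0.204). Cdh5 (chromosome 8, plus strand, peak at 104101706) was 29.1 ± 2.7 CPM in Pre (n = 4), 27.6 ± 2.6 CPM in Mid (n = 8) and 30.2 ± 1.6 CPM in Post (n = 4). Its log2 change from Pre to Mid was -0.08 with a 95% interval of -0.22 to 0.06. From Mid to Post it was not called (edgeR FDR = 0.155), but it was without Mid 6 (FDR = 0.0438), with upper-quartile scaling (log2 change 0.20, FDR = 0.0366) and with all 38 libraries in 1 fit (FDR = 0.0494). Myct1 (chromosome 10, plus strand, peak at 5593725), an endothelium-enriched gene, was 10.1 ± 0.9 CPM in Pre (n = 4) and 9.31 ± 1.49 CPM in Mid (n = 8), a log2 change of -0.12 with an interval of -0.36 to 0.13.

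The ligand genes of the VEGF receptors did not pass the test from Pre to Mid. Vegfa (chromosome 17, minus strand, peak at 46032374) was 214.3 ± 27.5 CPM in Pre (n = 4) and 225.7 ± 28.6 CPM in Mid (n = 8), a log2 change of 0.08 with a 95% interval of -0.13 to 0.28. Vegfb (chromosome 19, minus strand, peak at 6987653) was 119.8 ± 17.7 CPM (n = 4) and 115 ± 30.2 CPM (n = 8), a log2 change of -0.06 with an interval of -0.41 to 0.29. In Post, Vegfb stood at 85.7 ± 22.7 CPM (n = 4), which did not pass the edgeR test against Mid (FDR = 0.0703) but did without Mid 1 (FDR = 0.0272), Mid 8 (FDR = 0.0441) or Post 4 (FDR = 0.0199), and with DESeq2 (FDR = 0.0486).

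From Mid to Post, 2 of 11 promoters were called higher (Kdr and Angpt1) and 3 lower (both Flt1 promoters and Pecam1), against 35% of all promoters called (17.5% in each direction). From Pre to Post, 0 of the 11 were called by edgeR's quasi-likelihood test, its likelihood ratio test or DESeq2. Of all promoters the quasi-likelihood test called 1.85% (1.05% higher, 0.798% lower). By that test 1 of the 11 (Vegfb, at 0.716 of its Pre level) had an unadjusted p below 0.05. Both steps use the same Mid libraries, so their opposite signs are not independent of each other.

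Experiment 2 repeated these steps with fewer mice. Kdr was 41.6 and 37.8 CPM in Pre, 19.03, 26.1, 20.6, 23.9 and 25.7 CPM in Mid, and 32.1, 43.2 and 30.2 CPM in Post, with Mid below both other groups. The fall was -0.78 on the log2 scale (SE 0.16, edgeR FDR = 0.0132) and the return 0.60 (SE 0.14, edgeR FDR = 0.0145). Angpt1 was 6.09 and 8.66 CPM in Pre, 3.87 to 5.23 CPM in Mid and 7.51 to 9.55 CPM in Post, with Mid again below both (log2 change -0.71, SE 0.20, edgeR FDR = 0.0444, then 0.88, SE 0.17, FDR = 0.00575). These were the 2 promoters called from Pre to Mid, both lower, where 9.74% of all promoters were called (5.3% higher, 4.44% lower). From Mid to Post, Kdr and Angpt1 were called higher and Pecam1 lower (69.3 ± 9.1 CPM, n = 5, to 49.8 ± 3.9 CPM, n = 3, log2 change -0.47, edgeR FDR = 0.0182), where 16.4% of all promoters were called (7.73% higher, 8.65% lower). From Pre to Post 0 were called by any of the 3 tests (edgeR quasi-likelihood, likelihood ratio and DESeq2) and 1 (Vegfb) had an unadjusted p below 0.05, against 0.111% of all promoters called (0.0277% higher, 0.0832% lower).

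With only 2 Pre mice these calls rest on few libraries. Without Pre 5 the fall of Kdr had FDR = 0.119 and without Pre 6 FDR = 0.0744, and the fall of Angpt1 lost its call without Pre 5, Pre 6, Mid 9, Mid 11, Mid 12, Mid 13, Post 5 or Post 6 (FDR from 0.0551 to 0.407). The return of Kdr was not called without Post 6 (FDR = 0.0639), nor the fall of Pecam1 to Post without Post 5 (FDR = 0.0741) or Post 6 (FDR = 0.0712) or without TMM (FDR = 0.0662). The 2 Pre and 4 of the 5 Mid libraries were run on lane 3, and Mid 13 with the 3 Post libraries on lane 4. Within lane 3 Kdr was 37.8 to 41.6 CPM in Pre against 19.03 to 26.1 CPM in Mid, and within lane 4 it was 25.7 CPM in the single Mid library against 30.2 to 43.2 CPM in Post. Within lane 3 Angpt1 was 6.09 to 8.66 CPM in Pre against 3.87 to 5.23 CPM in Mid, and within lane 4 it was 4.71 CPM in Mid against 7.51 to 9.55 CPM in Post. Pecam1 in Mid 13 was 55.5 CPM, near the Post range of 47.2 to 54.2 CPM and below the other Mid libraries. With lane as a term in the edgeR fit, chosen after seeing the data, the fall of Kdr from Pre was still called, while that of Angpt1 (FDR = 0.0724) and the changes from Mid to Post of Kdr (FDR = 0.315), Angpt1 (FDR = 0.164) and Pecam1 (FDR = 0.584) were not.

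Flt1 in experiment 2 was 59.0 and 52.1 CPM in Pre, 57.6 to 87.1 CPM in Mid and 49.7 to 65.0 CPM in Post, with overlap. Its log2 changes of 0.31 (SE 0.17, edgeR FDR = 0.297) and -0.31 (SE 0.15, edgeR FDR = 0.198) did not pass the test. Whether a change differed between the experiments was tested with an interaction term in edgeR. In both interactions 0 promoters were called, and 605 (Pre to Mid) and 704 (Mid to Post) of 10819 had an unadjusted p below 0.05. Among the 11 promoters, 1 had an unadjusted p below 0.05 in each: Tie1 for Pre to Mid (edgeR FDR = 0.872), with a log2 change of -0.06 in experiment 2, and Flt1 for Mid to Post (edgeR FDR = 0.749).

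**Figure D3:**
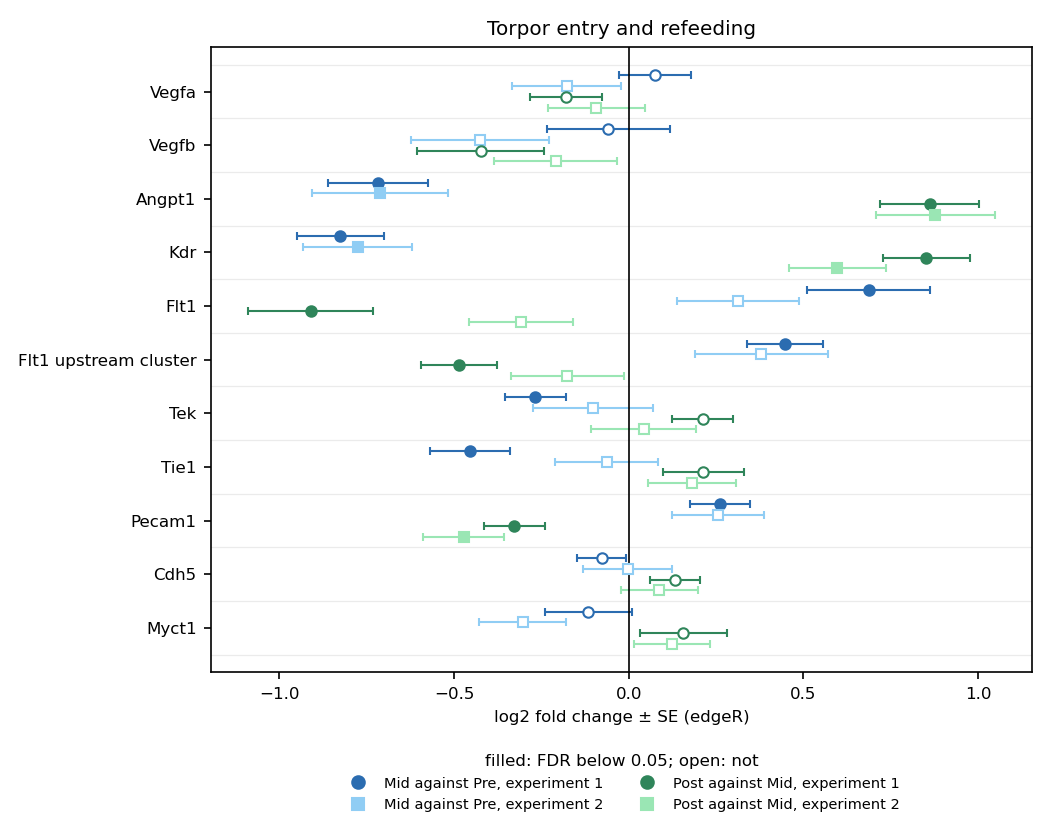
Log2 fold change with its SE (horizontal axis, edgeR) for each of the 11 promoters (vertical axis), for Mid against Pre in blue and Post against Mid in green, in experiment 1 (circles) and experiment 2 (squares), filled where FDR is below 0.05. Kdr and Angpt1 carry filled points of opposite sign in both experiments, whereas the filled points of Flt1, Tek and Tie1 come from experiment 1.

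Against the Fed mice, Mid mice had 1 promoter of 11 higher and 6 lower, where 35.2% of all promoters were called (16.6% higher, 18.6% lower). Kdr was 59.6, 57.4, 57.9 and 55.9 CPM in Fed, above every other library of experiment 1, and the Mid level was 0.469 of it (log2 change -1.09, SE 0.12, edgeR FDR = 4.69e-07). Angpt1 was 13.9 to 16.5 CPM in Fed, with no overlap with Mid (log2 change -0.97, SE 0.14, edgeR FDR = 9.65e-06). Vegfa was 302.4, 328.4, 258.3 and 379.8 CPM in Fed and lower in Mid (log2 change -0.49, SE 0.10, edgeR FDR = 0.000488), with 1 Mid library inside the Fed range.

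The other changes against Fed concerned the angiopoietin receptors and the junction genes. Tie1 (log2 change -0.45, edgeR FDR = 0.0035) and Tek (-0.33, edgeR FDR = 0.00426) were lower in Mid without overlap. Pecam1 was higher in Mid without overlap (0.37, edgeR FDR = 0.00172), a call that ended without TMM (FDR = 0.343). Cdh5 was lower in Mid (-0.20, edgeR FDR = 0.0326), a call lost without Mid 1, Mid 2, Mid 7, Mid 8, Fed 2, Fed 3, HiT 3, HiT 4, Post 1 or Dep 4 (FDR from 0.0562 to 0.113), with a replicate block (FDR = 0.0643), with Fed and Mid alone in the fit (FDR = 0.0518) and without TMM (FDR = 0.0639). The main Flt1 promoter was 86.0 ± 14.2 CPM in Fed (n = 4), a log2 difference to Mid of 0.20 with a 95% interval of -0.14 to 0.54. For Fed to Mid, 35.2% of all promoters were called (16.6% higher, 18.6% lower). Of the 24 other endothelial markers, 4 were higher and 9 lower in Mid than in Fed. Red cell markers, summed over 5 of 7 genes with a promoter, were 2814 to 13750 CPM in Fed and 2989 to 4238 CPM in Mid, with 4 of 5 called lower in Mid, and their part in these results was not tested.

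Against Pre, the Fed mice had 2 promoters of 11 higher and 0 lower, where 11.2% of all promoters were called (5.88% higher, 5.32% lower). Vegfa rose 1.48-fold with no overlap (log2 change 0.57, SE 0.12, edgeR FDR = 0.0088), and it was not called without TMM (FDR = 0.13). The upstream Flt1 promoter rose from 6.83 ± 0.22 CPM to 9.30 ± 0.68 CPM (n = 4 each, log2 change 0.44, SE 0.12, edgeR FDR = 0.026). That call was lost without Fed 1, Fed 2, Pre 1, Pre 2, Pre 3 or Pre 4 (FDR from 0.0504 to 0.0903), which left 1 promoter called, and without TMM (FDR = 0.265). The main Flt1 promoter and Kdr were also above all Pre libraries without passing the edgeR test (FDR = 0.109 and 0.247), and Flt1 was called without Mid 3 (FDR = 0.0394) and with Pre and Fed alone in the fit (FDR = 0.0432). Other endothelial markers moved the same way: of 24, 4 were called higher and none lower by edgeR, 19 estimates were above 0, and the median log2 change was 0.20, against 0.02 over all promoters. Their part in these results was not tested.

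The HiT mice had low Kdr, as the Mid mice did, but not their high Flt1. Kdr was 29.3, 28.4, 25.4 and 33.5 CPM in HiT, below all Pre libraries (log2 change from Pre -0.72, SE 0.15, edgeR FDR = 0.000529), and from HiT to Mid its log2 difference was -0.11 with a 95% interval of -0.36 to 0.14. Flt1 was 66.8, 62.6, 52.6 and 47.1 CPM in HiT, below every Mid library (log2 change to Mid 0.78, SE 0.18, edgeR FDR = 0.001), as was the upstream promoter (0.56, SE 0.11, edgeR FDR = 0.000209). Angpt1 was 9.44 to 13.9 CPM in HiT and lower in Mid (log2 change -0.68, SE 0.14, edgeR FDR = 0.000479), with 1 HiT library inside the Mid range. In all, 5 of 11 promoters were higher and 1 lower in Mid than in HiT, where 41% of all promoters were called (19.2% higher, 21.8% lower).

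The VEGF ligand genes and Myct1 had their lowest means in HiT. Vegfa was 149.3, 157.6, 195.4 and 159.8 CPM, below all Mid libraries (log2 change to Mid 0.45, SE 0.10, edgeR FDR = 0.00128). Vegfb was 54.2 to 79.3 CPM, with 1 Mid library inside that range (log2 change to Mid 0.73, SE 0.18, edgeR FDR = 0.00235). Myct1 was 7.32 ± 1.03 CPM (n = 4) and higher in Mid (log2 change 0.35, SE 0.13, edgeR FDR = 0.0308). This call was lost without Mid 4, HiT 1, HiT 2 or HiT 3 (FDR from 0.0524 to 0.105), with a replicate block (FDR = 0.105) and with HiT and Mid alone in the fit (FDR = 0.0702). Pecam1 (FDR = 0.098) was called higher in Mid without HiT 1 (FDR = 0.0327).

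Against Pre, HiT had 5 of 11 promoters lower and 0 higher, where 33.4% of all promoters were called (18.5% higher, 14.9% lower). These were Kdr, Vegfb (log2 change -0.79, SE 0.21, edgeR FDR = 0.00417), Tie1 (-0.53, SE 0.13, edgeR FDR = 0.00309), Myct1 (-0.47, SE 0.15, edgeR FDR = 0.015) and Vegfa (-0.37, SE 0.12, edgeR FDR = 0.0166). Vegfa was not called without Pre 2 or Pre 4 (FDR = 0.0571 and 0.0644), nor Myct1 without Pre 2 or HiT 3 (FDR = 0.0546 and 0.059), which left 3 promoters called without Pre 2.

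Some markers of other cells also differed between HiT and Pre, where 33.4% of all promoters were called (18.5% higher, 14.9% lower). Of 11 leukocyte markers 7 had a promoter, their summed level was 151.9 to 350.2 CPM in HiT against 51.8 to 78.5 CPM in Pre and 49.4 to 74.2 CPM in Mid, and 5 of 7 were called higher than in Pre. The macrophage gene Cd68 was 18.9 ± 4.7 CPM in HiT and 2.06 ± 0.44 CPM in Pre (n = 4 each), while Ptprc and Adgre1, which define leukocytes and macrophages, had no promoter under the rule. Of the lymphatic endothelial markers, Lyve1 and Pdpn were higher in HiT than in Pre (log2 change 1.66 and 1.64) and Prox1 was lower (-0.62). The summed level of 9 mural markers, for the cells that wrap vessels, was 564.6 to 650.3 CPM in HiT against 694.4 to 809.4 CPM in Pre. Of these 9, 4 were called lower and none higher. The 24 other endothelial markers were split, with 3 higher and 6 lower than in Pre. Red cell markers were lower in HiT for 3 of 5 genes, among them Hbb-bs (log2 change -0.85) and Hba-a1 (-0.82). Of 8 muscle genes listed for slow fibres, 3 were lower: Myl2 (-0.64), Myh7 (-0.45) and Ckm (-0.42), the last not limited to slow fibres. The summed level of the 8 was 15620 to 19940 CPM in HiT and 18720 to 19790 CPM in Pre. Of 6 fast muscle markers 1 was lower, the myosin gene Myh4 (-5.24), which ran from 4.66 to 438 CPM in Pre and from 2.62 to 6.52 CPM in HiT. The adipocyte gene Plin1 (-2.07, 1 of 7 markers) and the tendon gene Scx (-0.56, 1 of 7 fibroblast and tendon markers) were also lower. Of 5 Schwann cell markers 0 were called by edgeR or DESeq2, and 0 had an unadjusted p below 0.05. The part of these cells in the HiT results was not tested.

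In the Dep mice, which were fasted and touched, 0 of the 11 promoters were called against Mid by the edgeR quasi-likelihood test, where 2.03% of all promoters were called (1.16% higher, 0.872% lower). The edgeR likelihood ratio test and DESeq2 called 2 each, Angpt1 (FDR = 0.048 and 0.0379) and Vegfa (FDR = 0.041 and 0.0265). Of all 10776 promoters these tests called 343 and 479. By the quasi-likelihood test 6 of the 11 had an unadjusted p below 0.05, and the share of all promoters at that level was not counted. Vegfa was 276.2, 315.2, 288.9 and 273.6 CPM in Dep against 197.6 to 283.9 CPM in Mid (log2 difference 0.35, 95% interval 0.16 to 0.55, edgeR FDR = 0.065), and it was called without Mid 7 (FDR = 0.0221) or HiT 3 (FDR = 0.0469). Angpt1 had its lowest mean in Dep, at 5.09, 4.59, 6.04 and 5.31 CPM (log2 difference from Mid -0.52, interval -0.82 to -0.22, edgeR FDR = 0.0749). Kdr was 28.5, 36.3, 35.3 and 27.5 CPM, inside the Mid range (log2 difference 0.24, interval -0.01 to 0.49). Flt1 was 62.8, 62.4, 91.0 and 60.5 CPM, so that 3 of 4 Dep libraries lay below all Mid libraries (log2 difference -0.51, interval -0.86 to -0.17, edgeR FDR = 0.116). With the replicate number as a block, Vegfa (FDR = 0.0295) and Flt1 (FDR = 0.0411) were called.

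Against Pre, Dep had 2 of 11 promoters higher and 3 lower, where 25.8% of all promoters were called (13.7% higher, 12.1% lower). Angpt1 fell to 0.424 of its Pre level (log2 change -1.24, SE 0.17, edgeR FDR = 9.18e-06), Kdr to 0.666 (-0.59, SE 0.15, edgeR FDR = 0.00458) and Tie1 to 0.680 (-0.56, SE 0.13, edgeR FDR = 0.00315), all without overlap. Vegfa rose 1.35-fold without overlap (0.43, SE 0.12, edgeR FDR = 0.00859), a call that ended without TMM (FDR = 0.373). Pecam1 rose 1.23-fold (0.30, SE 0.10, edgeR FDR = 0.0276), a call lost without Pre 1, Pre 2, Pre 3, Dep 3 or Dep 4 (FDR from 0.054 to 0.114), with upper-quartile scaling (FDR = 0.0827) and without TMM (FDR = 0.681). Vegfb, at 82.8 ± 16.8 CPM (n = 4), was not called (edgeR FDR = 0.0579) but was with DESeq2 (FDR = 0.0404), the edgeR likelihood ratio test (FDR = 0.0441), upper-quartile scaling (FDR = 0.0274) or Pre and Dep alone in the fit (FDR = 0.027), and without Mid 1, Mid 3, Post 3, Post 4 or Dep 3 (FDR from 0.0268 to 0.047). The neutrophil gene S100a8 ran from 0.247 to 26.6 CPM in Dep and from 0.0811 to 0.430 CPM in Pre. Of 7 leukocyte markers, the edgeR quasi-likelihood test called 2 higher than in Pre and DESeq2 called 0. Their part in these results was not tested.

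**Figure D4:**
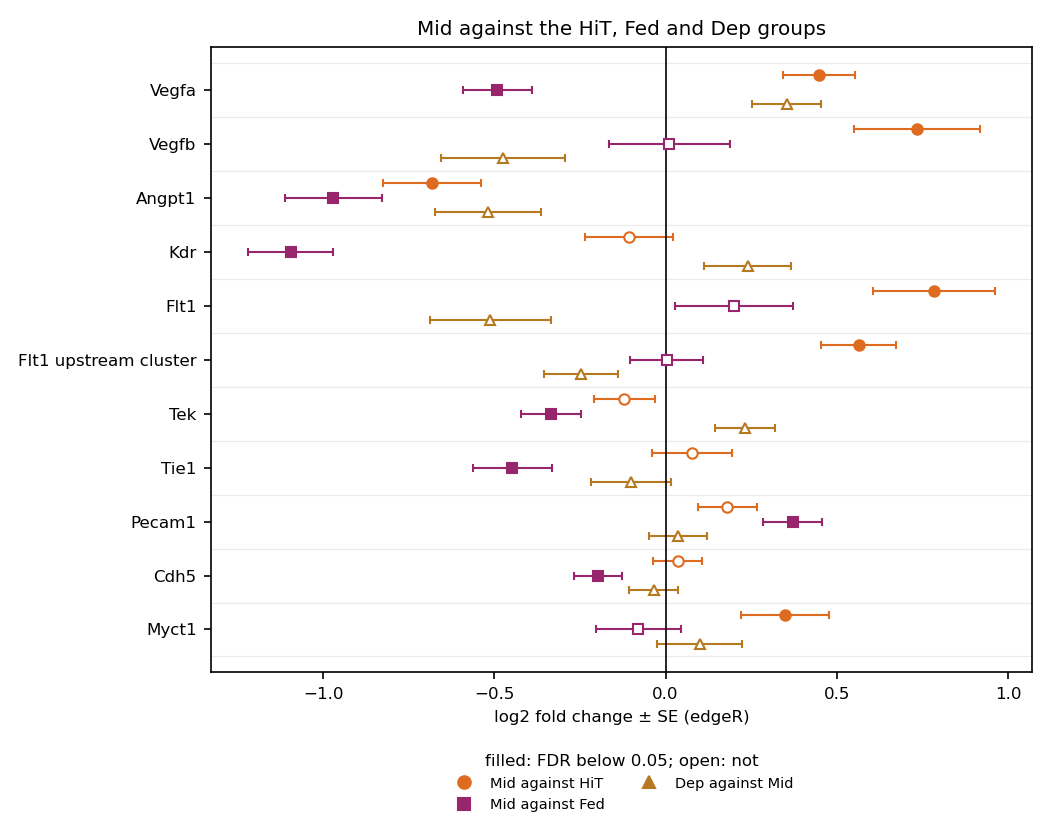
Log2 fold change with its SE (horizontal axis, edgeR) for each of the 11 promoters (vertical axis), for Mid against HiT (circles), Mid against Fed (squares) and Dep against Mid (triangles), filled where FDR is below 0.05. The filled Kdr point is that for Mid against Fed (-1.09), both Flt1 promoters and both VEGF ligand genes lie to the right for Mid against HiT, and all points for Dep against Mid are open.

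The order of the 6 groups of experiment 1 differed by gene. Kdr ran from Fed (57.7 CPM) through Post (48.8 CPM) and Pre (47.9 CPM) to Dep (31.9 CPM), HiT (29.2 CPM) and Mid (27.04 CPM), with overlapping libraries between Post and Pre and among the last 3. Flt1 ran from Mid (98.7 CPM) through Fed (86.0 CPM), Dep (69.2 CPM), Pre (61.3 CPM) and HiT (57.3 CPM) to Post (52.5 CPM), each neighbour overlapping the next. Vegfa ran from Fed (317.2 CPM) through Dep (288.5 CPM), Mid (225.7 CPM), Pre (214.3 CPM) and Post (199.2 CPM) to HiT (165.5 CPM), again with each neighbour overlapping the next. Angpt1 ran from Fed (14.8 CPM) through Post (13.7 CPM), Pre (12.4 CPM) and HiT (12.1 CPM) to Mid (7.55 CPM) and Dep (5.26 CPM), each neighbour overlapping the next, while Fed lay above all HiT libraries.

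The receptors also moved relative to other endothelial promoters. The mean log2 level of the 24 other endothelial markers was 4.47 ± 0.09 in Pre (n = 4), 4.49 ± 0.13 in Mid (n = 8), 4.38 ± 0.04 in Post (n = 4) and 4.65 ± 0.09 in Fed (n = 4). The log2 level of Kdr relative to that mean went from 1.12 ± 0.10 to 0.24 ± 0.32 and back to 1.23 ± 0.10, and that of Flt1 from 1.47 ± 0.21 to 2.09 ± 0.39 and back to 1.31 ± 0.29. In Fed, HiT and Dep (n = 4 each) it was 1.21 ± 0.12, 0.42 ± 0.11 and 0.45 ± 0.18 for Kdr, and 1.77 ± 0.27, 1.38 ± 0.26 and 1.56 ± 0.23 for Flt1. Set against these markers, Kdr in Fed thus overlapped with Pre and Post. For Cdh5 the group means of this difference lay between 0.22 and 0.54 in all 6 groups.

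The 24 endothelial markers themselves were split. From Pre to Mid in experiment 1, 6 were called higher and 4 lower, with a median log2 change of 0.03, where 30.2% of all promoters were called (15.4% higher, 14.8% lower). Gpihbp1, which carries lipoprotein lipase to the capillary surface, rose from 36.6 to 63.3 CPM (log2 change 0.79, SE 0.14, edgeR FDR = 9.09e-05), and Cldn5, a tight junction gene, rose from 26.8 to 39.3 CPM (0.55, SE 0.18, edgeR FDR = 0.0186). Cd93 (-0.53, edgeR FDR = 0.0022) and the sialomucin gene Podxl (-0.48, edgeR FDR = 0.00209) fell. All 4 were called with the same sign in experiment 2, where 3 of the 24 were higher and 2 lower and 9.74% of all promoters were called. Of 9 mural markers 2 were lower (Cspg4 and Acta2) in experiment 1.

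Of 24 other vascular signalling genes, 16 had a promoter, and from Pre to Mid in experiment 1 there were 5 called higher and 5 lower, with a median log2 change of -0.06, beside the same 30.2% of all promoters. Angptl4, an inhibitor of lipoprotein lipase, rose from 7.25 ± 4.26 CPM (n = 4) to 45.0 ± 21.5 CPM (n = 8, log2 change 2.62, edgeR FDR = 7.55e-05). The apelin receptor gene Aplnr fell from 19.4 to 6.57 CPM (-1.56, edgeR FDR = 0.000711), the growth factor gene Fgf2 fell from 6.97 to 3.21 CPM (-1.12, edgeR FDR = 0.00078), and the endothelial Notch receptor gene Notch4 rose from 10.2 to 17.1 CPM (0.74, edgeR FDR = 4.26e-05). In experiment 2, where 3 were higher and 3 lower beside 9.74% of all promoters, Angptl4, Aplnr and Fgf2 were called with the same signs (log2 changes 3.15, -1.46 and -0.84) and Notch4 was not (0.60, edgeR FDR = 0.0987).

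Vegfa is a well known target of the oxygen response and of the coactivator PGC-1α, encoded by Ppargc1a. Of 8 oxygen response regulators with a promoter, 4 were called higher from Pre to Mid in experiment 1, where 30.2% of all promoters were called (15.4% higher, 14.8% lower): Egln3 (log2 change 0.69, edgeR FDR = 0.000243), Hif1a (0.43, FDR = 0.00367), Epas1 (0.42, FDR = 0.00972) and Arnt (0.32, FDR = 0.00055). All 8 estimates were above 0, with a median log2 change of 0.21. In experiment 2 the edgeR quasi-likelihood test called 0 of the 8, where it called 9.74% of all promoters. The likelihood ratio test and DESeq2 called 1 each, and 3 had an unadjusted p below 0.05. There 4 of 8 estimates were above 0 and the median log2 change was 0.08, with Arnt at 0.43 (edgeR FDR = 0.0513), Hif1a at 0.30 (FDR = 0.0523), Egln3 at 0.30 (FDR = 0.395) and Epas1 at 0.24 (FDR = 0.422). Of 11 other targets, 5 were higher and 2 lower in experiment 1, with a median log2 change of 0.18. The largest changes were those of the stress gene Ddit4 (log2 change 2.65, edgeR FDR = 5.07e-05) and the glucose transporter gene Slc2a1 (1.09, edgeR FDR = 0.000165). In experiment 2, 3 targets were higher and 2 lower, with a median of 0.04. There Ddit4 (3.08, edgeR FDR = 0.00594) and Adm (0.86, FDR = 0.0258) were higher, and Pfkfb3 (-0.87, FDR = 0.0159) and P4ha1 (-0.66, FDR = 0.0174) lower. Ppargc1a rose from 6.92 ± 7.73 CPM (n = 4) to 190 ± 119.3 CPM (n = 8, log2 change 4.78, edgeR FDR = 7.07e-06). It was 211.7 ± 42.4 CPM in Dep and 3.04 ± 2.02 CPM in Fed (n = 4 each), the 2 groups with the highest Vegfa means. In HiT, which had the lowest Vegfa mean, Ppargc1a was higher than in Pre (log2 change 2.32, edgeR FDR = 0.006). The part of Ppargc1a and of the oxygen response genes in the Vegfa levels was not tested.

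Likeness was measured by Pearson's r of log2 levels over the 28 libraries of experiment 1, which share the group structure, and is given as a description. Among 9440 promoters compared, those most like Kdr were of Cbfa2t3 (0.941), Rasgrp3 (0.93), Gm12002 (0.93), Tnrc6b (0.928) and St5 (0.922). Those most like Cdh5 were of Mef2c (0.776), Calcrl (0.763), Cxcl12 (0.752), Mettl17 (0.748) and Nrep (0.738), and those most like Vegfa were of Zfyve16 (0.814), Zfp62 (0.797), Zfp638 (0.779), Afg1l (0.776) and Ankrd23 (0.775). Among the 11 promoters themselves, Kdr had r = 0.697 with Tie1, 0.631 with Angpt1, 0.616 with Tek and -0.378 with Flt1, and the 2 Flt1 promoters had r = 0.836 with each other.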

How the data were processed

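RNA from the soleus of 38 mice was sequenced as nAnT-iCAGE libraries. Trimming, alignment to mm10 (bwa, hisat2) and clustering of 5′ ends were done by the authors. The deposited table gives tag counts per cluster and library, and the deposited TPM columns (tags scaled to library size, by the authors) were not tested. Clusters were named from GENCODE vM21. Counts were fitted with edgeR 4.0.16 (R 4.3.3, limma 3.58.1), with TMM and Benjamini-Hochberg adjustment, in one fit per experiment with group as the only factor. Exact permutation tests used log2(CPM + 0.1). DESeq2 1.42.0 was an alternative. Scripts were tested on simulated data. Each mouse gave 1 library, so p-values measure the spread between mice. No 2 libraries of a group agreed within sampling noise (72 pairs). Named were all members and, from each other list, at most 4 called genes with the largest change per comparison. The members and lists were chosen with earlier results of these data known.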

Additional observations from a re-analysis of the deposited data

Results flagged for a closer look

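Among 77 sets of 4 to 8 libraries (the 11 promoters in the groups large enough to test), 1 library stood apart from its group by Dixon's test at the 95% level, where chance alone picks out about 3.85. This was Flt1 in Dep 3, at 91.0 CPM, against 60.5 to 62.8 CPM in the other 3 Dep libraries. The Kdr level of Dep 3, 35.3 CPM, lay within the range of its group.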

How the results depend on the processing

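Calls of Kdr, Angpt1, Tie1 and both Flt1 promoters from Pre to Mid in experiment 1 held whichever library was left out, and no direction reversed under any alternative for a called result. Deviations from the group mean were compared between same-numbered mice of different groups. The correlations had both signs and ranged from -0.509 to 0.463 (60 pairs, 18 of them over 0.1). Differently numbered pairs were not compared, so an effect shared by number cannot be judged from this. The main fit held no replicate block. With a replicate block, Mid to Dep gave 407 calls and 2 of the 11 promoters, and Pre to Post in experiment 2 (Pre and Post only) gave 0. The cause of the changes below was not tested.

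Counts of all promoters called (and of the 11) moved as follows. The likelihood ratio test gave 343 (2) for Mid to Dep, 116 for Pre to Post and 1 of the 11 for Pre to Mid in experiment 2. DESeq2 gave 326 for Pre to Post in experiment 1, 479 (2) for Mid to Dep and 175 for Pre to Post in experiment 2. Library size without TMM gave, in experiment 1, 1458 (3) for Pre to Mid, 1630 for Mid to Post, 21 for Pre to Post, 2323 for HiT to Mid, 2181 for Fed to Mid, 9 for Mid to Dep, 1974 for Pre to HiT, 6 (0) for Pre to Fed and 1444 (3) for Pre to Dep. With only the groups compared, Mid to Dep gave 2, Pre to Fed 631, and in experiment 2 Pre to Mid 1 of the 11 and Pre to Post 0. Lane as a term, chosen after seeing the data, gave 1 of the 11 for Pre to Mid, 485 (0) for Mid to Post and 0 for Pre to Post in experiment 2. Fitting all 38 libraries with experiment as a term gave 731 (1) for Pre to Post, and against the experiment 2 values 4009 (7) for Pre to Mid and 4527 (7) for Mid to Post.

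Leaving out 1 library at a time gave 46 to 357 (0 to 1) for Mid to Dep, 192 to 1973 (1 to 3) for Pre to Fed, 3 to 5 of the 11 for Pre to HiT and 67 to 240 for Pre to Post in experiment 1. In experiment 2 it gave 260 to 1320 (0 to 2) for Pre to Mid, 1 to 3 of the 11 for Mid to Post and 0 to 19 for Pre to Post. Without TMM the share of calls that were higher went from 51.0% to 36.6% for Pre to Mid, 47.1% to 23.3% for Fed to Mid, 55.4% to 29.6% for Pre to HiT, 53.1% to 25.3% for Pre to Dep, 57.1% to 77.8% for Mid to Dep, 52.5% to 33.3% for Pre to Fed and 47.2% to 62.2% for Mid to Post in experiment 2. Upper-quartile scaling gave 35.7% for Pre to Mid, 63.3% for Mid to Post (from 49.9%), 36.7% for Fed to Mid, 41.3% for Pre to HiT, 38.9% for Pre to Dep and 58.3% for Mid to Post in experiment 2, and DESeq2 gave 43.4% for Pre to Post in experiment 2 (from 25%).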
